A study of Homo sapiens with 2 samples.

Results

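H19, CDKN1C, KCNQ1OT1, MEST, PEG3, PEG10, MEG3, SNRPN, PLAGL1 and GNAS, 10 genes known as imprinted in human or mouse tissue, were followed in HCT116 colorectal carcinoma cells labelled CREB1 knockout or CREB1 wild-type. Their rows were found by Ensembl identifier among the 57820 identifiers of the deposited table, and all 10 were present. CREB1 is a transcription factor that acts at cAMP response elements. The KO cells were a single clone of HCT116, a human line, made with the nickase Cas9 plasmid PX461 and guide RNAs against CREB1 and selected, per the labels, for loss of CREB1. The WT cells were HCT116 with wild-type CREB1, and both cultures were kept in DMEM with serum, penicillin and streptomycin. Each group had 1 library of ribosome-depleted, strand-specific total RNA, so there was no replicate check, no test and no p-value. The genotype, the choice of clone and the culture cannot be told apart. The genes were chosen by name after their KO and WT counts had been seen, H19 for its low KO over WT ratio, and these ratios are therefore a description.

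At an imprinted gene the copy from the mother and the copy from the father are not used equally, because DNA methylation laid down in egg or sperm marks them differently. Imprinted genes lie in clusters that share a control region, and many of them act on fetal growth. H19 and MEG3 are long noncoding RNAs made from the maternal copy, and KCNQ1OT1 is one made from the paternal copy. The counts used here do not tell the parental copies apart, so the imprint itself was not measured.

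The table holds expected counts per gene, which summed to 31178312 in the KO and 34511071 in the WT library. Levels are given as CPM, counts scaled to library depth by TMM, a method that sets the bulk of genes equal between libraries. Genes with a mean of at least 1 CPM are called expressed. A ratio is KO over WT on the log2 scale, with an exact 95% interval that covers counting error only. Calls of higher or lower needed a difference of 2-fold or more and an interval that left out 0. CREB1 had 499 counts in the KO and 614 in the WT library, but gene counts cannot reveal a small deletion, so the genotype was not checked by them. All 10 colorectal epithelial markers were expressed, with summed counts of 118821 in KO and 143660 in WT and a median ratio of -0.18. CLDN4, CLDN7 and KRT18 were at -0.36, -0.35 and -0.26. Fibroblast markers summed to 92 counts in KO and 90 in WT, nearly all from COL1A1, and endothelial markers to 23 in KO and 26 in WT with CDH5 at 0 in both. Leukocyte markers summed to 24.4 expected counts in KO and 46.7 in WT, with none expressed and PTPRC, CD3E and MS4A1 at 0 in both. Most of these came from CD68, with 1.4 in KO and 32.7 in WT, and LYZ, with 19 in KO and 10 in WT. The 5 neuronal markers summed to more, 1598 counts in KO and 1174 in WT, and SYT1 (0.48) and MAP2 (0.95) were expressed. Most of these counts were from SYT1, with 1455 in KO and 1101 in WT. Of the 5 neuronal markers, 2 had at most 3 counts in both libraries. The part of these differences in the results was not tested.

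Of the 10 genes, 7 were expressed in this sense, and MEG3, PEG3 and SNRPN were at or near 0 in both libraries. H19 was called lower in the KO library, where 1.64% of 12886 expressed genes were called lower. No imprinted gene of the 10 was called higher, where 1.28% of expressed genes were, and 2.92% were called in either direction. The median log2 ratio of the 7 was 0.13, beside 0.01 for all expressed genes, with 4 above 0 and 3 below. Apart from H19 the 7 lay between -0.20 and 0.99. In bulk RNA a lower share of cells that make a transcript and less of it per cell cannot be told apart.

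**Figure D1:**
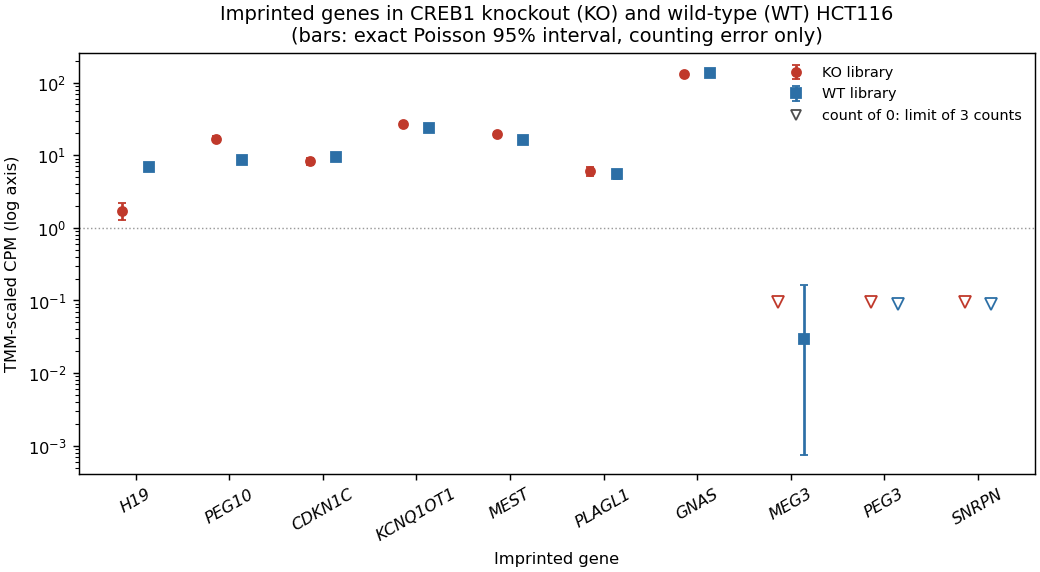
TMM-scaled CPM of the 10 imprinted genes on a log axis, KO library in red circles and WT library in blue squares, with exact Poisson 95% intervals. Open triangles mark a count of 0 at the limit of 3 counts, and the dotted line is 1 CPM. H19 stood at 1.69 CPM in KO and 6.87 CPM in WT, and PEG10 at 16.9 CPM in KO and 8.50 CPM in WT.

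H19 (ENSG00000130600.11, chromosome 11) is a spliced noncoding RNA abundant in fetal tissue, the precursor of the microRNA miR-675, and it shares a control region with the growth factor gene IGF2. It had 54 counts in the KO library and 231 in the WT library, or 1.69 CPM (interval 1.27 to 2.20) in KO and 6.87 CPM (6.01 to 7.81) in WT. The 2 intervals lie far apart. The log2 ratio was -2.01 (interval -2.48 to -1.59), a level 4.04-fold lower in KO (3.01 to 5.57). Of all expressed genes, 34 had a ratio at or below that of H19. Among 3186 genes whose mean CPM was within 2-fold of that of H19, 2.67% were called lower.

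The 1 RefSeq promoter window held for H19 (GRCh38.p14, chr11:2001217-2001516, minus strand, 250 bases before to 50 after that transcript start) is shown because H19 was the called gene. It was searched on both strands for the cAMP response element, either the full palindrome TGACGTCA or its shorter form TGACG, whose reverse complement is CGTCA. The full element contains the shorter form on both strands. Any other start of H19 was not searched. Neither form was found in this window, so the sequence has no capitals:
H19: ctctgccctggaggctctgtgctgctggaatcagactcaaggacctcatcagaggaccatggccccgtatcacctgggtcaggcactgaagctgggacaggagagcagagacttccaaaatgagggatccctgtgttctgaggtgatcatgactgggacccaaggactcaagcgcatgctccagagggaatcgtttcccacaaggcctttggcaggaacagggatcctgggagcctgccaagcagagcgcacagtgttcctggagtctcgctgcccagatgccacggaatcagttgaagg

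The hairpin of miR-675 lies inside H19. Its mature forms are shown, with the seed (bases 2 to 8) in capitals, because they are made from the transcript with the lowest ratio. The 2 seeds differ, and neither form was measured here:
miR-675-5p: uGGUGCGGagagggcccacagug
miR-675-3p: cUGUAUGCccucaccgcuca

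IGF2, expressed in normal tissue from the parental copy on which H19 is silent, did not share its ratio. IGF2 had 95.3 expected counts in KO and 95.4 in WT, or 2.97 CPM in KO and 2.82 CPM in WT, with a log2 ratio of 0.07 (interval -0.35 to 0.50). The interval does not overlap that of H19. Its counts are not whole numbers, as happens when reads are divided among genes. In annotated order, the nearest expressed protein-coding genes on the other side of H19 were MRPL23 (-0.07), CTSD (0.38) and AC068580.4, and those on the side of IGF2 continued with CD81 (-0.09) and TSSC4 (0.28). AC068580.4 was called higher, with 115.5 expected counts in KO and 28.3 in WT and a ratio of 2.10 (interval 1.52 to 2.77). Like those of IGF2 and CTSD, its counts are not whole numbers, and the interval does not cover how reads were divided. Over 40 such neighbours of H19, 20 on each side, the median ratio was 0.01. None was called lower, where 1.64% of all expressed genes were. AC068580.4 alone was called higher, where 1.28% of all expressed genes were. The lowest of the 40 was at -0.45.

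The KCNQ1OT1 domain lies beside that of H19 on chromosome 11. KCNQ1OT1 (ENSG00000269821.1) is an unspliced antisense RNA of the paternal copy that silences neighbouring genes on the same chromosome. It had 855 counts in KO and 802 in WT, or 26.7 CPM in KO and 23.8 CPM in WT, with a log2 ratio of 0.17 (interval 0.03 to 0.31). That is no farther from 0 than 57.9% of expressed genes. CDKN1C (ENSG00000129757.8) is silenced on the paternal copy in that cluster and encodes p57, an inhibitor of cyclin-dependent kinases. It had 263 counts in KO and 319 in WT, or 8.22 CPM in KO and 9.48 CPM in WT. Its ratio of -0.20 had an interval of -0.45 to 0.04, which includes no difference.

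Around these genes no listed gene was called, where 2.92% of all expressed genes were called in either direction. Of 13 genes listed for the domain 9 were expressed, with a median ratio of 0.06. KCNQ1, a potassium channel gene inside which KCNQ1OT1 lies on the opposite strand, had 122 counts in KO and 88 in WT and a ratio of 0.54 (interval 0.14 to 0.96). The sources used here do not say whether the counting used strand, so reads of such overlapping pairs cannot be told apart. PHLDA2, a maternally expressed gene that restrains placental growth, had 1105 counts in KO and 878 in WT and a ratio of 0.41 (interval 0.28 to 0.53). SLC22A18, a transporter gene, was at 0.06 and NAP1L4, a histone chaperone gene, at -0.01. KCNQ1OT1 and CDKN1C share most of their 40 neighbours, whose median was -0.00 for both.

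**Figure D2:**
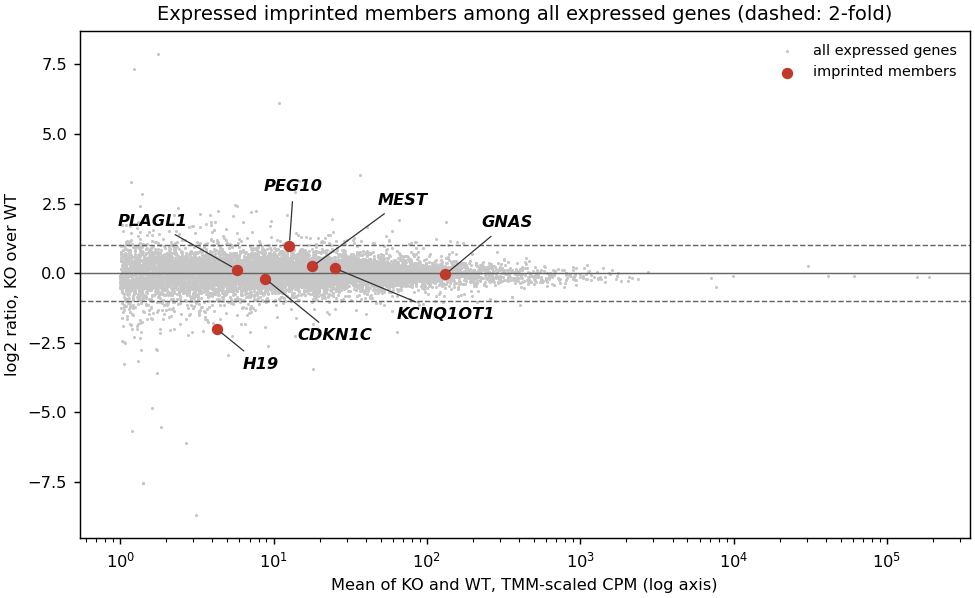
The log2 ratio of KO over WT against the mean TMM-scaled CPM (log axis) of all 12886 expressed genes in grey and of the 7 expressed imprinted genes in red, with dashed lines at 2-fold. H19 lies at -2.01 and PEG10 at 0.99, and the other 5 between -0.20 and 0.24.

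PEG10 (ENSG00000242265.1, chromosome 7) is a paternally expressed gene descended from a retrotransposon, with gag-like and pol-like reading frames joined by a ribosomal frameshift. It had 539 counts in the KO library and 286 in the WT library, or 16.9 CPM (interval 15.5 to 18.3) in KO and 8.50 CPM (7.54 to 9.54) in WT. The intervals of the levels do not overlap. The log2 ratio was 0.99 (interval 0.78 to 1.2), or 1.98-fold (1.72 to 2.30), just short of the threshold. With total-count scaling it was 1.06 and PEG10 was called higher, so the call depends on the scaling. Of all expressed genes, 173 had a ratio at or above that of PEG10, and among 5105 genes with a mean CPM within 2-fold of it 0.764% were called higher.

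On one side of PEG10 the next 3 expressed protein-coding genes had ratios of 0.82 or more. PPP1R9A, which encodes the actin-binding protein neurabin, had 901 counts in KO and 536 in WT and a ratio of 0.82 (interval 0.67 to 0.98), and was not called. PON3, a lactonase gene of the paraoxonase family, had 74.9 expected counts in KO and 35.9 in WT and was called higher at 1.12 (interval 0.54 to 1.75). Its relative PON2 had 1268 counts in KO and 596 in WT and was called higher at 1.16 (interval 1.02 to 1.31). SLC25A13, the next gene, was at 0.06 (interval -0.17 to 0.29). On the other side SGCE, a sarcoglycan gene that starts beside PEG10 on the opposite strand and overlaps it, had 219 counts in KO and 227 in WT and a ratio of 0.02 (interval -0.25 to 0.30). CASD1, beyond SGCE, had 136 counts in KO and 86 in WT and a ratio of 0.73. Farther on that side VPS50 was at 0.54, CDK6 at 0.43 and RBM48 at 0.72. Of the 10 nearest genes there only FAM133B, at -0.02, was below 0. Among the 10 nearest on the side of PON2, those below 0 were SDHAF3 (-0.55), ASNS (-1.34), BHLHA15 (-0.32) and TECPR1 (-0.05). All 5 expressed genes of the 8 listed for the PEG10 domain had ratios above 0, with a median of 0.99. Of all 12886 expressed genes, 6600 were above 0. Over the 40 neighbours of PEG10 the median was 0.06, and 22 were above 0. Of the 40, PON2 and PON3 were called higher and ASNS, an asparagine synthetase gene, was called lower. Of all expressed genes, 1.28% were called higher and 1.64% lower.

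**Figure D3:**
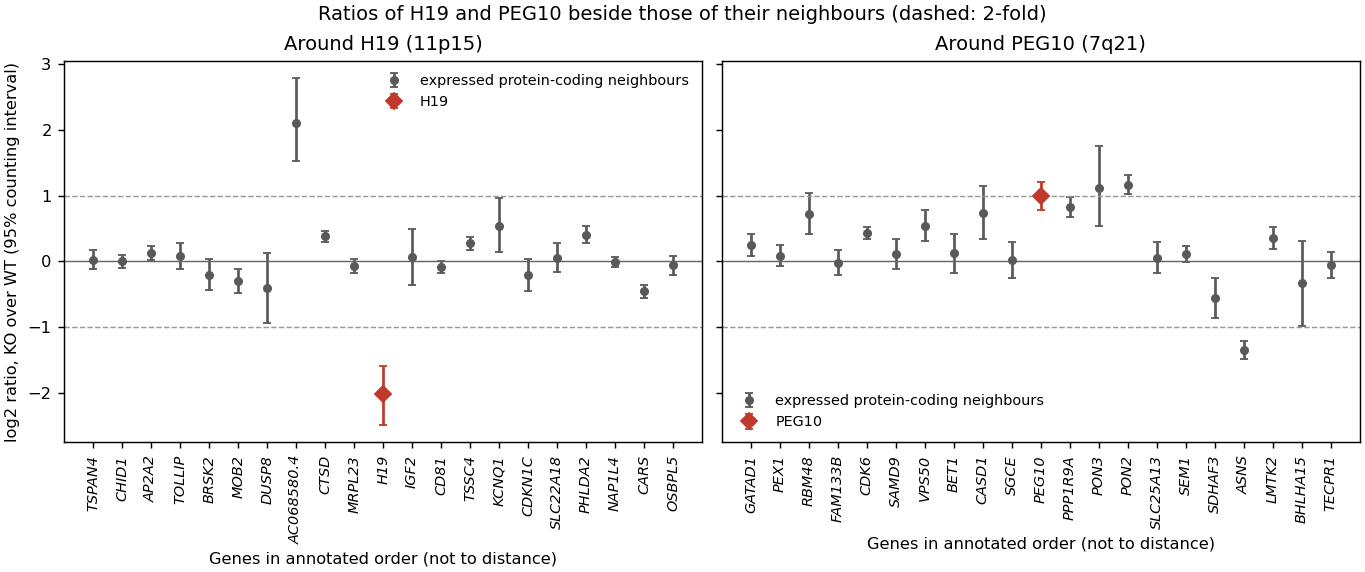
Log2 ratios, KO over WT, with 95% counting intervals, of H19 (left) and PEG10 (right) as red diamonds and of the 10 nearest expressed protein-coding genes on each side as grey circles, in annotated order and not to distance. H19 at -2.01 lies below all the neighbours shown, and PEG10 at 0.99 is followed by PPP1R9A, PON3 and PON2 at 0.82, 1.12 and 1.16.

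MEST, PLAGL1 and GNAS were closer to level. MEST (ENSG00000106484.10, chromosome 7), a paternally expressed gene of mesoderm that encodes a hydrolase-like protein, had 621 counts in KO and 553 in WT, or 19.4 CPM in KO and 16.4 CPM in WT. Its ratio was 0.24 (interval 0.07 to 0.41), no farther from 0 than 43.3% of expressed genes. CPA4, a carboxypeptidase gene near MEST, was called lower with 109 counts in KO and 251 in WT and a ratio of -1.13 (interval -1.47 to -0.80). COPG2, which overlaps MEST on the opposite strand, had 260 counts in KO and 258 in WT and a ratio of 0.08.

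PLAGL1 (ENSG00000118495.14, chromosome 6), a zinc finger transcription factor that restrains growth, had 192 counts in KO and 185 in WT, or 6.0 CPM in KO and 5.50 CPM in WT. Its ratio of 0.13 had an interval of -0.17 to 0.43. In its domain 4 genes were expressed and none was called, where 2.92% of all expressed genes were. PHACTR2, a phosphatase regulator gene there, had 255 counts in KO and 484 in WT and a ratio of -0.85 (interval -1.08 to -0.63).

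GNAS (ENSG00000087460.19, chromosome 20) encodes the G protein subunit that activates adenylyl cyclase, upstream of cAMP and CREB1. It had 4159 counts in KO and 4516 in WT, or 130 CPM in KO and 134 CPM in WT. Its ratio was -0.05 (interval -0.11 to 0.02), and 0.028 with total-count scaling, so its sign depends on the scaling. The locus makes several transcripts, imprinted and not, that a gene-level count adds together. The antisense gene GNAS-AS1 had 1 count in KO and 0 in WT. Neighbours on the list were NPEPL1 (0.38), NELFCD (0.07) and CTSZ (0.02), none of them called, where 2.92% of all expressed genes were.

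Levels between genes were compared per kilobase of annotated exon, since longer transcripts collect more reads. In the KO library GNAS was highest at 9.76 CPM per kilobase, followed by MEST (4.05), CDKN1C (3.32), PEG10 (2.52), PLAGL1 (0.688), H19 (0.583) and KCNQ1OT1 (0.292). In the WT library the levels were 10.1 CPM per kilobase for GNAS, 3.83 for CDKN1C, 3.43 for MEST, 2.37 for H19, 1.27 for PEG10, 0.630 for PLAGL1 and 0.260 for KCNQ1OT1. H19 was thus above PEG10 and PLAGL1 in WT, and below PEG10 in KO, where its interval of 0.438 to 0.761 overlapped that of PLAGL1, 0.594 to 0.792. The intervals of MEST and CDKN1C overlapped in both libraries. Their order in WT depends on the length used: per kilobase of the longest transcript, MEST was at 7.75 CPM in KO and 6.56 CPM in WT, and CDKN1C at 4.25 CPM in KO and 4.90 CPM in WT. GNAS was at 32.3 CPM in KO and 33.3 CPM in WT on that length, and the order of the other genes was the same. KCNQ1OT1 came second by CPM in both libraries and last per kilobase, with 91.7 kilobases of annotated transcript.

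MEG3, PEG3 and SNRPN were assigned almost no reads. MEG3 (ENSG00000214548.10, chromosome 14), a noncoding RNA that restrains growth, had 0 counts in KO and 1 in WT. PEG3 (ENSG00000198300.8, chromosome 19), a zinc finger gene linked to maternal behaviour in mice, and SNRPN (ENSG00000128739.16, chromosome 15), a spliceosomal Sm protein gene in the region lost in Prader-Willi syndrome, had 0 in both. A count of 0 allows up to 3 counts, or 0.0938 CPM in KO and 0.0892 CPM in WT, so no ratio is given.

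Other genes of these 3 domains were mostly at or near 0. Of 7 genes listed for the MEG3 domain none was expressed, and 5 had at most 3 counts in both libraries. In the SNRPN domain 7 of 10 genes had 0 counts in both libraries. MKRN3, an imprinted zinc finger gene there, had 285 counts in KO and 221 in WT and a ratio of 0.44 (interval 0.18 to 0.70). UBE3A, a ubiquitin ligase gene imprinted in neurons, had 1693 counts in KO and 1839 in WT and a ratio of -0.05. Of 7 matched genes in the PEG3 domain 6 had 0 counts in both, and ZNF264 was at -0.05. SNRPB, which encodes the Sm protein most like that of SNRPN, had 8523 expected counts in KO and 10020 in WT. Whether RSEM assigned reads of SNRPN to SNRPB was not tested, so the 0 of SNRPN and its limit are those of the reads assigned to it.

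A promoter window of MEG3 in RefSeq (GRCh38.p14, chr14:100825858-100826157, plus strand) is shown because, of the windows searched here, those of MEG3 held the full cAMP response element while its RNA was nearly absent in both libraries. Capitals mark the element, which begins 50 bases before the transcript start:
MEG3: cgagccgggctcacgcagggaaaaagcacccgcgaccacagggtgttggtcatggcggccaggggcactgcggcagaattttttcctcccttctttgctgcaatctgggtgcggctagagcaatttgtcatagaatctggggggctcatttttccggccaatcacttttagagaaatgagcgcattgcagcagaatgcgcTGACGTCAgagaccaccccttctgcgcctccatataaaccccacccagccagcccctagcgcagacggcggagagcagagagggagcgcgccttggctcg

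The table of windows held 24 for 6 of the 10 genes, namely H19, MEST, MEG3, SNRPN, PLAGL1 and GNAS. The full element was in 3 of the 24 (12.5%), the 3 overlapping windows of MEG3, beside 1.85% of 35116 windows of all genes. The shorter form was in 11 of the 24 (45.8%), from 5 of the 6 genes, beside 24.6% of all windows. Windows of a gene can overlap and genes with more starts have more windows, so these shares are a description. The GNAS window with the most matches (GRCh38.p14, chr20:58888930-58889229, plus strand) is shown because GNAS had the highest level of the 10 genes. Capitals mark the shorter form:
GNAS: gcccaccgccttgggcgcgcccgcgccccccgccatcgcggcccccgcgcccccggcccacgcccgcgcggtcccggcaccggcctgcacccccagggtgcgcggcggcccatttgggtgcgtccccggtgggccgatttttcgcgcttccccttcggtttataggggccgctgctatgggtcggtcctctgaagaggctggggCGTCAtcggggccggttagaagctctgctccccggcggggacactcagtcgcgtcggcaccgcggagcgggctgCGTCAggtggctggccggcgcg

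**Figure D4:**
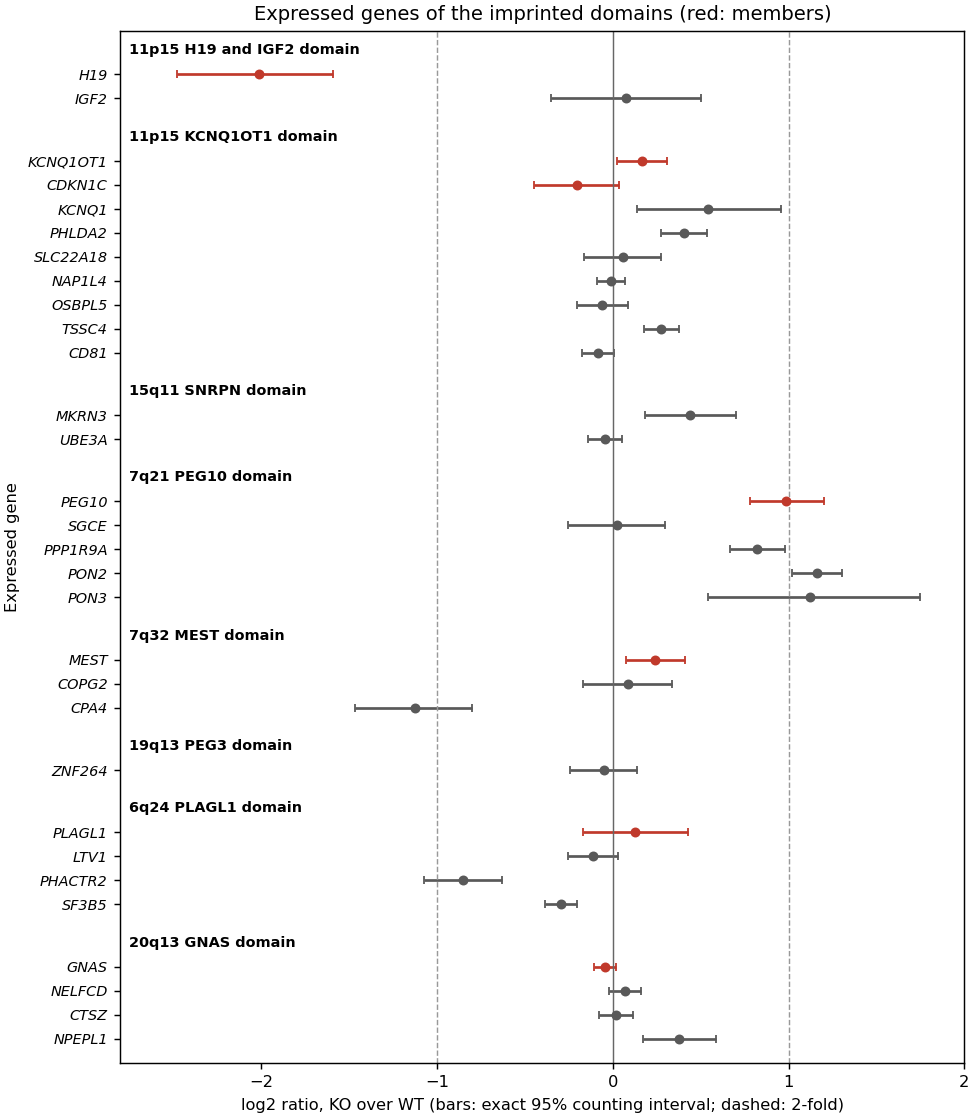
Log2 ratios, KO over WT, of the expressed genes in each imprinted domain with exact 95% counting intervals, the chosen imprinted genes in red and other genes in grey, and dashed lines at 2-fold. H19 and CPA4 lie below the lower line and PON2 and PON3 above the upper line, and no gene of the MEG3 domain was expressed.

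A wider list of 97 imprinted genes and their neighbours, the 10 included, had 93 matched and 42 expressed genes. Of these 4 were called higher and 2 lower, where 1.28% of all expressed genes were called higher and 1.64% lower. The median ratio was 0.08, beside 0.01 for all expressed genes. H19 and its set were chosen on these ratios, so nothing is read from the counts. Called higher beside PON2 and PON3 were the chloride channel gene ANO1 (1338 counts in KO and 623 in WT, ratio 1.18) and the acetyltransferase gene NAA60 (240 expected counts in KO and 124 in WT, ratio 1.02). Called lower were H19 and CPA4. IGF2R, the receptor that clears IGF2, had 2224 counts in KO and 1204 in WT and a ratio of 0.96, called with total-count scaling but not with TMM. TP73, a relative of p53, had 317 counts in KO and 202 in WT and a ratio of 0.72. Below the level filter FAM50B had 6 counts in KO and 37 in WT (interval of the ratio -4.09 to -1.29). NAP1L5 had 10 in KO and 32 in WT (-2.79 to -0.54), and VTRNA2-1 had 17 in KO and 46 in WT (-2.26 to -0.53). Without the filter, 635 genes of the whole table were called lower and 451 higher.

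None of 23 expressed genes for DNA methylation and the upkeep of imprints was called, where 2.92% of all expressed genes were, which is under 1 gene in 23. Of the 23, 15 were above 0, and the median ratio was 0.13, beside 0.01 for all expressed genes. CBX5, a heterochromatin protein gene, was at 0.62, ARID4A, a chromatin protein gene, at 0.45 and TET3, which oxidizes methylcytosine, at 0.43. DNMT3B, which sets new methylation, had 481 counts in KO and 737 in WT and a ratio of -0.54. ZFP57, a zinc finger protein that guards imprints in the early embryo, had 0 counts in both libraries.

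Relatives of the imprinted genes had no call either, beside 2.92% of all expressed genes. Of 7 CDK inhibitor genes, CDKN1C among them, the median ratio was -0.20, with CDKN2D at -0.92, CDKN2A at 0.55, CDKN1B at 0.40 and CDKN2C at -0.34. Of 10 genes for G protein alpha subunits and a chaperone of them, the median was -0.06, with GNAL, the closest relative of GNAS, at -0.93, GNAI1 at -0.43, GNA13 at -0.26 and GNA11 at -0.08. Of 10 genes around IGF2 and H19, 8 were expressed with a median of 0.23. IGF2R, called with total-count scaling, was at 0.96, IGF1R at 0.71, IGF2BP3 at 0.49 and IGF2BP2 at 0.24. Of 14 retrotransposon-derived genes, PEG10 among them, 8 were expressed with a median of 0.10, with RTL8A at -0.74, RTL8C at -0.32 and PNMA1 at 0.30. Of 8 Sm protein genes 7 were expressed with a median of -0.16, with SNRPD2 at -0.29, SNRPD3 at -0.18, SNRPG at -0.17 and SNRPB at -0.16. PLAGL2, a relative of PLAGL1, was at 0.30.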

How the data were processed

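RNA was measured in 1 KO and 1 WT library of HCT116 cells. The authors deposited expected counts per gene, made with cutadapt 2.0, STAR 2.4.2a and RSEM 1.2.26 on build hg19, per the submitters' processing notes. Annotation release, strand setting and filters are not stated there. RSEM shares multi-mapping reads out among genes. Both columns were mapped by genotype name, with 0 left unmapped.

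Names, gene order and exon lengths came from GENCODE 29 (GRCh38) by Ensembl identifier without version, and 90.5% matched. Unmatched identifiers, with 35.2% of KO and 37.0% of WT counts, stayed in the totals.

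Expected counts were rounded and scaled by TMM (edgeR 4.0.16, R 4.3.3), with a prior count of 0.5 in log2 ratios. Intervals of ratios are Clopper-Pearson intervals from the conditional binomial distribution (scipy 1.17.1), and those of levels are Poisson intervals. They cover counting error only and count read pairs as independent molecules. The rule was run on simulated Poisson counts with known folds. These hold no variation between clones, cultures or library preparations, so that run cannot show how the rule behaves under such variation. Alternatives were total counts, DESeq2 1.42.0 size factors, upper-quartile factors, TMM on protein-coding genes, unrounded counts, a prior count of 2, other level filters, a 1.5-fold threshold and longest-transcript lengths.

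Named by rule were the 10 genes, called genes of their domains, up to 4 genes of each other list with the largest ratios, and 3 neighbours on each side of H19 and CDKN1C. All other names, the windows of 40 neighbours and the promoter search were chosen after seeing the data. The 10 genes and the lists were chosen with earlier results of these data known. The result of 1 listed gene is not reported here.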

Additional observations from a re-analysis of the deposited data

How the results depend on the processing

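With 1 library per group no library could be left out, and the intervals leave out variation between clones, cultures and library preparations. The log2 ratio of H19 lay between -2.03 and -1.94 and that of PEG10 between 0.97 and 1.06 under the 6 other scalings, roundings and prior counts. H19 was called lower in all of these, but 0 of the 10 genes were called lower with a filter at 5 mean CPM, since H19 averaged 4.28 CPM and was not among the genes tested. PEG10 was the 1 gene called higher with total counts and with the 1.5-fold threshold, and with total counts the log2 ratio of GNAS was 0.028. That scaling moved the median of all expressed genes by 0.07. The number of expressed genes called higher was 451 without a filter, 75 with the filter at 5 mean CPM and 677 at 1.5-fold, against 165. The number called lower was 635, 62 and 709 under these settings, against 211. Total counts gave 201 higher and 167 lower.

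Without the filter the median log2 ratio was -0.46 in the H19 and IGF2 domain, -0.046 in the SNRPN domain, -0.52 in the MEST domain, -1.07 for fibroblast markers and 1.28 for neuronal markers, where genes of a few counts enter. Per kilobase of the longest transcript, in place of all exons, the CPM in KO and WT were 32.3 and 33.3 for GNAS, 7.75 and 6.56 for MEST, 4.25 and 4.90 for CDKN1C, and 0.954 and 0.873 for PLAGL1, and 2.92 in WT for H19. No paired analysis was possible because each group has 1 library.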
